A study of Homo sapiens with 4 samples.

Results

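The 54 genes described here encode the machinery that brings proteins into mitochondria, the peptidases and proteases that trim and degrade them there, and the factors that copy, transcribe and translate the mitochondrial genome. They were chosen by name and function, but with earlier results of these data known. All 54 were found in the deposited table of 64252 Ensembl gene IDs. All of them passed the filter on low counts, as did 18817 IDs in all. RNA was sequenced from the established line J.gamma1, which was derived from Jurkat, a human line of acute lymphoblastic leukaemia of T cells (T-ALL), and has no PLCG1, a phospholipase of T-cell receptor signalling. One group was cultured for 48 h with 10 µM FB23-2, a small-molecule inhibitor of the RNA demethylase FTO, and the other for 48 h with the DMSO vehicle alone at under 0.1%. Each group held 2 biological replicates, so the data describe a single cell line at a single dose and time.

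Library totals were 37804516 and 33983246 counts with FB23-2, against 24615359 and 34897961 counts in control. All 13 T-cell and T-ALL markers examined, among them CD3E, CD7 and TAL1, averaged at least 1 CPM, the unit of all levels given here (a gene's share of its library's counts, scaled by TMM). Their summed level was 1804 to 1895 CPM with FB23-2 and 2377 to 2405 CPM in control, and its part in the results below was not tested. Of markers of other cell types, 3 of 5 for B cells, 1 of 4 for monocytes and 2 of 3 for epithelial cells reached 1 CPM. The defining markers MS4A1, CD14, LYZ and EPCAM did not.

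Nearly all mitochondrial proteins are made in the cytosol and imported. The TOM complex is the entry gate of the outer membrane, small TIM chaperones ferry membrane proteins across the intermembrane space, the TIM22 complex inserts carriers into the inner membrane, and the TIM23 complex with its motor pulls proteins with a presequence into the matrix. Inside, peptidases cut off the presequence, proteases remove damaged chains, and nuclear-encoded factors transcribe, stabilise and translate the RNAs of the mitochondrial genome. The comparison asks which of these transcripts differ in T-ALL cells after 48 h of FTO inhibition.

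Most of this machinery fell at the RNA level. Of the 54 genes, 40 were lower with FB23-2 and 1 was higher (edgeR quasi-likelihood test, Benjamini-Hochberg adjusted over all tested genes, threshold 0.05), and 13 did not pass. The lower genes made up 74.1% of the set. Across all 18817 tested genes 20.3% were called lower and 21.8% higher, 42.1% in all. Every member averaged above 5 CPM, and among the 11851 genes at that level 26.5% were called lower and 30.1% higher, 56.6% in all. The median log2 fold change, FB23-2 over control, was -0.49 over the 54 genes, against 0.02 over those 11851 genes. Both FB23-2 libraries lay below both control libraries for 44 of the 54 genes, a pattern that 34.5% of all tested genes and 37.6% of those at 5 CPM or more showed. The falls were moderate. TWNK and TIMM13 were called and at least 2-fold lower, as were 4.46% of all tested genes and 2.73% of those at 5 CPM or more. The other 38 genes called lower fell by less. Added together, the 54 genes took 3063 and 2954 CPM in the FB23-2 libraries, against 4207 and 4167 CPM in the control libraries. In these bulk samples fewer cells of a kind and less RNA per cell cannot be told apart, and CPM shows shares of the RNA, not amounts.

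**Figure D1:**
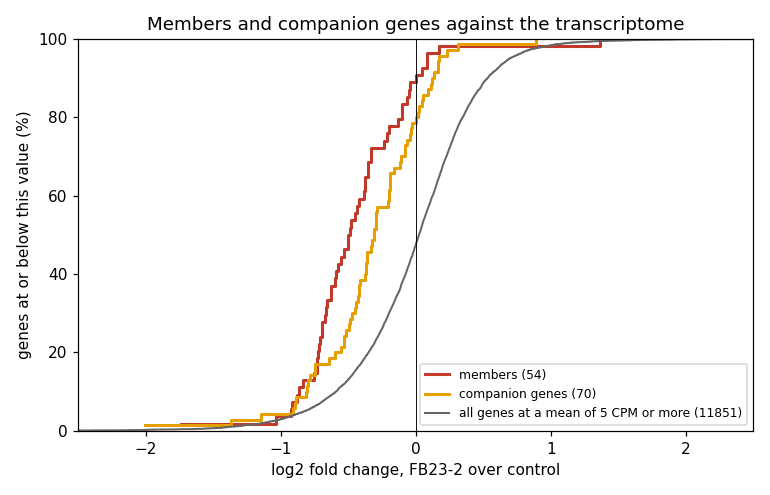
Share of genes (y axis, percent) at or below each log2 fold change, FB23-2 over control (x axis), for the 54 members, 70 companion genes of the same processes and the 11851 genes at a mean of 5 CPM or more. The curve of the members lies to the left of that of all genes over most of its course, with medians of -0.49 and 0.02.

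**Figure D2:**
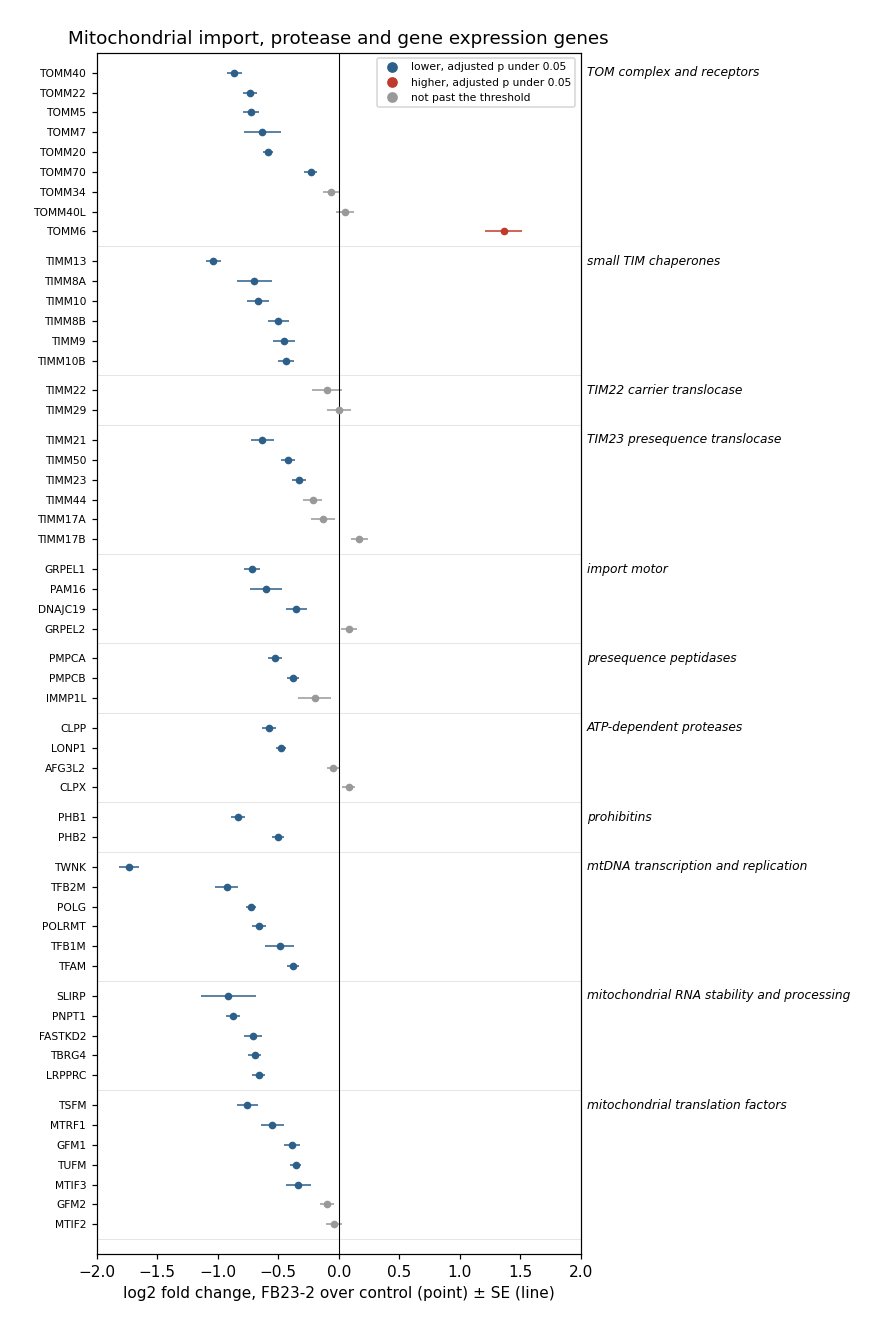
Log2 fold change, FB23-2 over control, with its SE for each of the 54 members, by role and ordered within each role. Blue points are the 40 genes that passed as lower, the red point is TOMM6, and grey points are the 13 genes that did not pass.

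Promoter sequences were examined because the genes moved together and because 3 sequence motifs are well known in promoters of mitochondrial genes. RefSeq promoters (GRCh38.p14, 250 bases before to 50 bases after the start) were found for 49 of the 54 genes. Those of TOMM5, TIMM8B, GRPEL1, CLPP and TWNK were not matched. Each motif was searched on both strands. The E-box CACGTG, which is bound by MYC and MAX among others, was found in 8.16% of the 49 promoters and in 10.7% of 8885 promoters of genes at 5 CPM or more, so its share among members was no higher. The core of the NRF1 motif (GCGC, then any base, then TGCGC), which is bound by NRF1, an activator of nuclear genes for mitochondrial proteins, was found in 22.4% and 13.4%. The ETS motif CCGGAAGT, which is bound by GABPA, was found in 24.5% and 9.95%. Over all 27305 promoters the shares were 7.43% for the E-box, 6.28% for the NRF1 core and 4.44% for the ETS motif. These shares were not tested, and a match is a run of letters, not a site shown to be bound in these cells. All 4 members with an E-box (TOMM20, TIMM8A, TIMM10 and LONP1) were called lower. Of the 11 with an NRF1 core, 7 were called lower, and of the 12 with an ETS motif, 8 were called lower and 1 higher. For comparison, 35 of the 49 members with a promoter were called lower. Shown here are the 250 bases before the start of TOMM20, which holds all 3 motifs, of POLRMT, which holds the NRF1 core in 2 overlapping copies and the ETS motif (on the other strand), of LONP1, which holds the E-box at 2 places, and of TIMM29. The last was not called, and like POLRMT holds 2 NRF1 cores and the ETS motif. Capitals mark the matches, on either strand, and where capitals run together in POLRMT the NRF1 cores share bases.
TOMM20, chr1:235128838-235129087, minus strand: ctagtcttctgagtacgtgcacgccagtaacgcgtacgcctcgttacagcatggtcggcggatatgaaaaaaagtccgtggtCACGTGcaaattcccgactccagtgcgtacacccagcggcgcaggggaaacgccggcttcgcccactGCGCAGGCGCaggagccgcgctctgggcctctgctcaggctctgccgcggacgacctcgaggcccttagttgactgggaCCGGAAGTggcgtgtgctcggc
POLRMT, chr19:633538-633787, minus strand: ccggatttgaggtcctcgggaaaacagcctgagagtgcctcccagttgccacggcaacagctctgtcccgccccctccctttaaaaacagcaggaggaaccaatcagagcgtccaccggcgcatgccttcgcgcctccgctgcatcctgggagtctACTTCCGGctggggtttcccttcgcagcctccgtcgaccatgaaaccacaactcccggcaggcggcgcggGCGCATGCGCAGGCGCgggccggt
LONP1, chr19:5720147-5720396, minus strand: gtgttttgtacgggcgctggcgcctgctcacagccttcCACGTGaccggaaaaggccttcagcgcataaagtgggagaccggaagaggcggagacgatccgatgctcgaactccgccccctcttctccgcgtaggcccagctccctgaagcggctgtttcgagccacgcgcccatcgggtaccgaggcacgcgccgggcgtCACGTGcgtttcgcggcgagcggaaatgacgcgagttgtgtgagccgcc
TIMM29, chr19:10928561-10928810, plus strand: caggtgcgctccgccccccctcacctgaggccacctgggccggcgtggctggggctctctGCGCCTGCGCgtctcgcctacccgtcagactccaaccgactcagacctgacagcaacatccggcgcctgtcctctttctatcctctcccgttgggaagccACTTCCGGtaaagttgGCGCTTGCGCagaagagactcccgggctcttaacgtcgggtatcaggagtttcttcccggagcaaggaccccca
Counted from the start, the matches of TOMM20 begin at -168 (E-box), -101 (NRF1 core) and -22 (ETS). Those of POLRMT begin at -94 (ETS), -24 and -18 (NRF1 cores). In LONP1 the E-boxes begin at -212 and -49. In TIMM29 the NRF1 cores begin at -190 and -74 and the ETS motif at -90. The members with both an NRF1 core and the ETS motif were TOMM20, POLRMT, TIMM29 and GRPEL2. Their log2 fold changes were -0.59, -0.66, 0.00 and 0.08, in that order. Whether the motifs play a part in these values was not tested.

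Of the 9 genes of the TOM complex and its receptors and helpers, 6 fell. Values in parentheses from here on are log2 fold changes, FB23-2 over control, ± SE. TOMM40 (chromosome 19, 44890569 to 44903689), the pore through which precursors pass, had 61.6 and 55.2 CPM with FB23-2 and 108 and 105 CPM in control. The log2 fold change of -0.86 ± 0.06 (SE, n = 2 per group; edgeR adjusted p = 7.76e-06) was the lowest among these 9. TOMM22, the central receptor that also joins the pores, had 59.4 and 57.1 CPM with FB23-2, against 101 and 93.0 CPM in control (-0.73 ± 0.06). TOMM20, the presequence receptor, had 203 and 197 CPM with FB23-2 and 305 and 297 CPM in control (-0.59 ± 0.04). All FB23-2 libraries of these 3 genes were below all control libraries, with gaps wider than the spread within a group. TOMM5, a small subunit that aids assembly, had 42.7 and 41.5 CPM with FB23-2 and 73.0 and 66.9 CPM in control (-0.73 ± 0.07). TOMM7, another small subunit, had 33.3 and 32.2 CPM with FB23-2 and 59.1 and 43.5 CPM in control (-0.63 ± 0.15, edgeR adjusted p = 0.0247). The control libraries of TOMM7 differed more from each other than those of most members, and TOMM7 no longer passed when FB23-2 replicate 1 (adjusted p = 0.177) or FB23-2 replicate 2 (0.212) was left out. TOMM70, the receptor for carrier precursors, fell by less (-0.23 ± 0.06, edgeR adjusted p = 0.00808, or 0.0518 without control replicate 1). TOMM40L, a paralog of the pore gene, had 30.1 and 30.2 CPM with FB23-2 and a control mean of 29.1 ± 0.221 CPM (SD, n = 2; log2 fold change 0.05 ± 0.08, edgeR adjusted p = 0.645). TOMM34, a cytosolic co-chaperone of import, also did not pass (-0.07 ± 0.07, edgeR adjusted p = 0.473).

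TOMM6, a small subunit that stabilises the TOM complex, was the only member called higher. It had 54.2 and 42.4 CPM with FB23-2 and 20.8 and 17.3 CPM in control, a log2 fold change of 1.36 ± 0.15 (edgeR adjusted p = 6.78e-04). This value is uncertain, since all 637 exon bases of TOMM6 (chromosome 6, 41787662 to 41789898) also belong to ENSG00000124593, another gene ID on the same strand. That ID moved the other way, with 14.7 and 23.8 CPM with FB23-2 and 84.9 and 90.1 CPM in control (-2.20 ± 0.24, edgeR adjusted p = 0.0086). The sum of the counts of both IDs came to 68.8 and 66.2 CPM with FB23-2, against 106 and 107 CPM in control. In a fit with these counts summed, this came to a log2 fold change of -0.66 ± 0.05 (edgeR adjusted p = 1.16e-05), within the range of the other TOM subunits that fell. With IDs that share at least 20% of a member's exon bases on the same strand summed in this way, 41 members were called lower and 0 higher. Which of the 2 IDs a read belongs to cannot be told from the table.

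**Figure D3:**
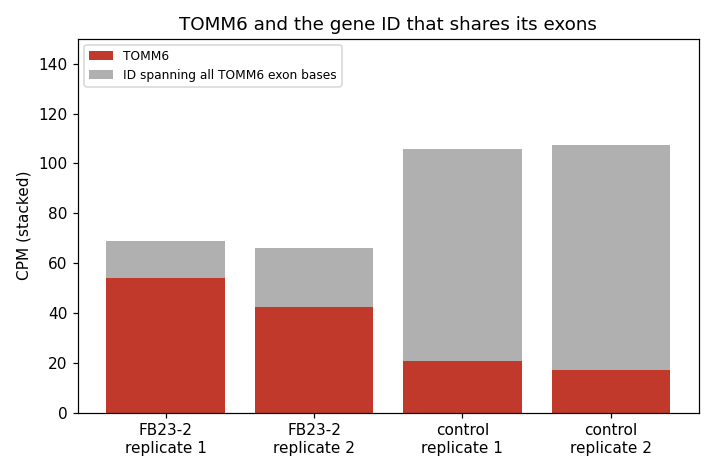
Level in CPM of TOMM6 (red) and of ENSG00000124593, the ID that spans all TOMM6 exon bases (grey), stacked for each library. TOMM6 alone is taller in the FB23-2 libraries (54.2 and 42.4 CPM, against 20.8 and 17.3 CPM in control), while the stacked sum is shorter there (68.8 and 66.2 CPM, against 106 and 107 CPM).

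All 6 small TIM chaperones of the intermembrane space fell. TIMM13, which forms a carrier with TIMM8A for certain inner membrane proteins, had 40.3 and 40.2 CPM with FB23-2 and 79.6 and 85.1 CPM in control. This difference (-1.04 ± 0.06, edgeR adjusted p = 2.66e-06) was the lowest among the import genes, and TIMM13 lies at chromosome 19, 2425624 to 2427894. It shares 13.0% of its exon bases with LMNB2 on the same strand, which was not called (-0.09 ± 0.04), and 15.9% with TMPRSS9 on the opposite strand, which had 25 and 35 counts with FB23-2 and 30 and 32 counts in control. TIMM10, which with TIMM9 forms the main carrier chaperone, had 20.5 and 19.7 CPM with FB23-2 and 33.5 and 30.7 CPM in control (-0.67 ± 0.09). TIMM8A, the gene of deafness-dystonia syndrome, had the fewest counts of the set behind its value, with 6.75 and 6.08 CPM with FB23-2 and 10.7 and 10.3 CPM in control (-0.70 ± 0.14, edgeR adjusted p = 0.00337). TIMM8B (-0.50 ± 0.09), TIMM9 (-0.45 ± 0.09) and TIMM10B (-0.44 ± 0.07) fell by less. TIMM8B shares 30.1% of its exon bases with NKAPD1 on the opposite strand, which was also lower (-0.21 ± 0.05), and TIMM9 shares 14.9% with KIAA0586 on the opposite strand, which was higher (0.38 ± 0.06). With GC and length trends taken out, the log2 fold change was -0.43 for TIMM10 and -0.32 for TIMM8B, and both were still called. The summed level of the 6 genes was 162 and 158 CPM with FB23-2 and 255 and 252 CPM in control.

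Of the 8 genes of the inner membrane translocases, which these chaperones and the TOM complex feed, 3 passed, and all 3 fell. Among all genes at 5 CPM or more, 26.5% were called lower and 56.6% were called in either direction. In the TIM22 complex neither gene passed. TIMM22, its channel, had 10.1 and 10.0 CPM with FB23-2 and 10.7 and 10.8 CPM in control (-0.10 ± 0.12, edgeR adjusted p = 0.568). TIMM29, which links TIM22 to the TOM complex, had 16.7 and 15.9 CPM with FB23-2, against 15.9 and 16.6 CPM in control (0.00 ± 0.10). Of 6 TIM23 genes, 3 fell. TIMM21, which tethers TIM23 to the TOM complex, had 23.4 and 20.6 CPM with FB23-2 and 32.5 and 35.5 CPM in control (-0.63 ± 0.09, edgeR adjusted p = 5.52e-04). TIMM50, the receptor that takes over presequences from TOM, had 65.3 and 60.8 CPM with FB23-2 and 86.1 and 82.8 CPM in control (-0.42 ± 0.06). TIMM23, the channel-forming subunit, had 71.9 and 72.0 CPM with FB23-2 and 87.6 and 92.9 CPM in control (-0.33 ± 0.05, edgeR adjusted p = 0.00102). It has a near-identical copy, TIMM23B, with which reads may have been shared, and TIMM23B had a log2 fold change of -0.36 ± 0.10. The partner subunits TIMM17A (-0.13 ± 0.10, edgeR adjusted p = 0.349) and TIMM17B (0.17 ± 0.07, edgeR adjusted p = 0.0828) did not pass. The libraries of the 2 groups overlapped for TIMM17A, and those of TIMM17B were higher with FB23-2, at 47.4 and 46.2 CPM against 43.5 and 40.0 CPM in control. TIMM44, the anchor of the motor, narrowly missed the threshold (-0.21 ± 0.08, edgeR adjusted p = 0.0548).

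In the import motor, 3 of 4 genes fell. GRPEL1, the nucleotide exchange factor of the matrix HSP70 chaperone, had 43.5 and 40.6 CPM with FB23-2 and 66.5 and 71.7 CPM in control (-0.72 ± 0.07, edgeR adjusted p = 3.56e-05). Its paralog GRPEL2 had 50.6 and 51.9 CPM with FB23-2 and 46.7 and 49.8 CPM in control (0.08 ± 0.06, edgeR adjusted p = 0.337). The co-chaperone PAM16 had 9.42 and 8.97 CPM with FB23-2 and 15.2 and 13.0 CPM in control (-0.60 ± 0.13, edgeR adjusted p = 0.00511). Its partner DNAJC19 fell too (-0.35 ± 0.09, edgeR adjusted p = 0.00887). The DNAJC19 call was lost without FB23-2 replicate 2 (0.0612) and without control replicate 1 (0.0532). PAM16 shares 21.9% of its exon bases with the read-through gene CORO7-PAM16 on the same strand, which had 71 and 0 counts with FB23-2 and 221 and 144 counts in control. With both IDs summed PAM16 had 11.3 and 8.97 CPM with FB23-2 and 24.4 and 17.1 CPM in control (-1.0 ± 0.20, edgeR adjusted p = 0.00728). With GC and length trends taken out its log2 fold change was -0.34 (edgeR adjusted p = 0.0295).

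Of the presequence peptidases, both subunits of the matrix processing peptidase fell. PMPCA, its regulatory subunit, had 49.2 CPM in each FB23-2 library and 72.2 and 69.9 CPM in control (-0.53 ± 0.06). PMPCB, the catalytic subunit, had 77.5 and 76.9 CPM with FB23-2 and 99.8 and 101 CPM in control (-0.38 ± 0.05, edgeR adjusted p = 2.61e-04). IMMP1L, a subunit of the inner membrane peptidase, had overlapping groups and did not pass (-0.20 ± 0.14). Among the ATP-dependent proteases, LONP1 and CLPP of the matrix fell, and the inner membrane protease AFG3L2 did not pass (-0.05 ± 0.05, edgeR adjusted p = 0.448). LONP1, which degrades oxidised and misfolded matrix proteins, had 192 and 189 CPM with FB23-2 and 258 and 273 CPM in control (-0.48 ± 0.04, edgeR adjusted p = 2.88e-05). CLPP, the peptidase of the ClpXP protease, had 52.7 and 50.2 CPM with FB23-2 and 76.7 and 76.8 CPM in control (-0.58 ± 0.06). CLPX, the unfoldase that feeds CLPP, stood at 78.7 and 76.6 CPM with FB23-2 and 73.3 and 73.4 CPM in control (0.08 ± 0.05, edgeR adjusted p = 0.248).

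The prohibitins, which form ring-shaped scaffolds in the inner membrane, both fell. PHB1 (chromosome 17, 49404049 to 49414905) had 115 and 105 CPM with FB23-2 and 205 and 189 CPM in control (-0.83 ± 0.06, edgeR adjusted p = 7.20e-06). PHB2 had 117 and 111 CPM with FB23-2 and 162 and 160 CPM in control (-0.50 ± 0.05). In control these genes had the second and the third highest levels of the set per length, at 106 (PHB2) and 101 (PHB1) CPM per kilobase of the principal transcript, against 109 for TUFM. With FB23-2 the levels were 75.1 for PHB2, 56.4 for PHB1 and 85.4 for TUFM.

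All 6 genes of mitochondrial DNA transcription and replication fell, and TWNK fell the most of all 54 genes. TWNK encodes Twinkle, the helicase that unwinds mitochondrial DNA at the replication fork. It had 14.6 and 15.4 CPM with FB23-2, against 48.0 and 51.4 CPM in control. On the log2 scale this was -1.74 ± 0.08 (edgeR adjusted p = 9.83e-07), or 3.33-fold higher in control, and TWNK ranked 308th from the lowest of the 18817 tested genes. It lies at chromosome 10, 100987367 to 100994401. POLG, the catalytic subunit of the mitochondrial DNA polymerase, had 163 and 158 CPM with FB23-2 and 260 and 269 CPM in control (-0.72 ± 0.04, edgeR adjusted p = 2.47e-06). POLG shares 7.66% of its exon bases with FANCI on the opposite strand, which was higher (0.38 ± 0.04). POLRMT, the mitochondrial RNA polymerase, had 50.9 CPM in each FB23-2 library and 80.0 and 80.6 CPM in control (-0.66 ± 0.05). TFB2M, the initiation factor that helps POLRMT open promoters, had 13.3 and 12.9 CPM with FB23-2 and 24.5 and 25.3 CPM in control (-0.93 ± 0.10). TFB1M, a ribosomal RNA methyltransferase related to it, fell by less (-0.49 ± 0.12, edgeR adjusted p = 0.00792), and its call was lost without FB23-2 replicate 2 (0.0532) and without control replicate 2 (0.0806). TFAM, which packages the mitochondrial genome and bends its promoters, had 80.8 and 81.8 CPM with FB23-2 and 108 and 103 CPM in control (-0.38 ± 0.05, edgeR adjusted p = 3.01e-04). TFAM fell the least of these genes. Summed over the 6 genes, the level was 336 and 331 CPM with FB23-2 and 539 and 548 CPM in control.

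**Figure D4:**
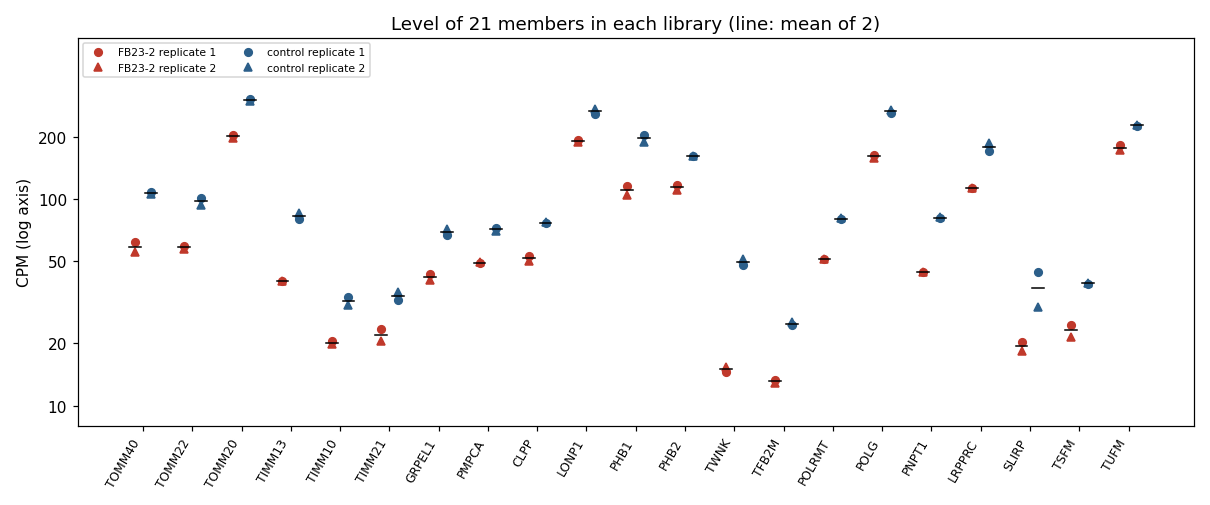
CPM (log axis) of 21 members in each library, FB23-2 in red and control in blue, with a line at the mean of the 2 libraries of a group. The groups do not overlap for any gene shown. On this log axis TWNK has the widest gap, and the control libraries of SLIRP lie farthest apart (44.5 and 29.9 CPM).

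The 5 genes of mitochondrial RNA stability and processing also all fell. PNPT1, the polynucleotide phosphorylase of the mitochondrial degradosome, had 44.2 and 44.1 CPM with FB23-2 and 80.5 and 81.6 CPM in control (-0.88 ± 0.06, edgeR adjusted p = 3.96e-06). LRPPRC, which protects mitochondrial messenger RNAs, had 112 and 113 CPM with FB23-2 and 170 and 185 CPM in control (-0.66 ± 0.05). SLIRP, its binding partner, had 20.3 and 18.4 CPM with FB23-2 and 44.5 and 29.9 CPM in control (-0.91 ± 0.23, edgeR adjusted p = 0.0374). As a ratio, the control libraries of SLIRP differed by more than those of any other gene in the plot of levels by library. SLIRP no longer passed when FB23-2 replicate 1 (adjusted p = 0.192) or FB23-2 replicate 2 (0.240) was left out. With GC and length trends taken out its log2 fold change was -0.60 (edgeR adjusted p = 0.00308). FASTKD2, needed for assembly of the large mitochondrial ribosomal subunit, had 30.5 and 28.4 CPM with FB23-2 and 47.4 and 48.8 CPM in control (-0.71 ± 0.07). TBRG4, a protein of the same family also known as FASTKD4, had 68.4 and 64.4 CPM with FB23-2 and 108 CPM in each control library (-0.70 ± 0.05).

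Of 7 mitochondrial translation factors, 5 fell. TSFM, the exchange factor that recharges the elongation factor TUFM, had 24.6 and 21.6 CPM with FB23-2 and 38.9 and 39.1 CPM in control (-0.76 ± 0.09, edgeR adjusted p = 1.16e-04). TUFM itself, which delivers aminoacyl-tRNAs to the ribosome, had 182 and 171 CPM with FB23-2 and 225 and 227 CPM in control (-0.36 ± 0.05). MTRF1, a release factor, had 15.2 and 16.2 CPM with FB23-2 and 22.3 and 23.4 CPM in control (-0.55 ± 0.10). GFM1, the translocating elongation factor, had 43.4 and 45.5 CPM with FB23-2 and 59.1 and 57.2 CPM in control (-0.39 ± 0.06). GFM2, a related factor that acts in ribosome recycling, did not pass (-0.10 ± 0.06, edgeR adjusted p = 0.198), nor did the initiation factor MTIF2 (-0.04 ± 0.06, edgeR adjusted p = 0.667). The other initiation factor, MTIF3, passed (-0.33 ± 0.10, edgeR adjusted p = 0.0231), but not without FB23-2 replicate 2 (0.138), without control replicate 2 (0.188), with no filter (0.0707) or with DESeq2 (0.0695). It shares 11.3% of its exon bases with GTF3A on the opposite strand, which was lower (-1.01 ± 0.04).

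Partners within a complex and paralogs were next set against each other as a log2 ratio in each library, over 13 pairs and with no correction for length. The ratios of 12 pairs did not overlap between groups, and 3 pairs differed by at least 0.5 on the log2 scale. Over all 70217175 pairs of the genes at 5 CPM or more, 79.3% did not overlap and 42.0% differed by at least 0.5, so that separated ratios were common throughout the transcriptome. With 2 libraries per group an exact two-sided permutation test cannot give a p below 0.333, so these differences are descriptions. The TOMM40 to TOMM40L ratio was 1.03 and 0.87 on the log2 scale with FB23-2 and 1.88 and 1.86 in control, a difference of -0.92. For GRPEL1 over GRPEL2 the log2 ratio was -0.22 and -0.36 with FB23-2 and 0.51 and 0.53 in control, a difference of -0.80, and the sign of the ratio differed between the groups. For CLPP over CLPX it was -0.58 and -0.61 with FB23-2 and 0.07 and 0.06 in control, a difference of -0.66. In each of these pairs the first gene was called lower and the second was not called. TFB1M over TFB2M differed by 0.43 and TUFM over TSFM by 0.40, where both genes of a pair were called lower. PHB1 over PHB2 differed by -0.34, and TIMM17A over TIMM17B by -0.31. The 2 subunits of the processing peptidase kept closest, with a difference of -0.15 for PMPCA over PMPCB. LRPPRC over SLIRP overlapped, at 2.47 and 2.61 with FB23-2 and 1.93 and 2.63 in control. The exact permutation p was 0.333 for 12 pairs and 1 for LRPPRC over SLIRP (0.361 and 1 adjusted over the 13 pairs).

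**Figure D5:**
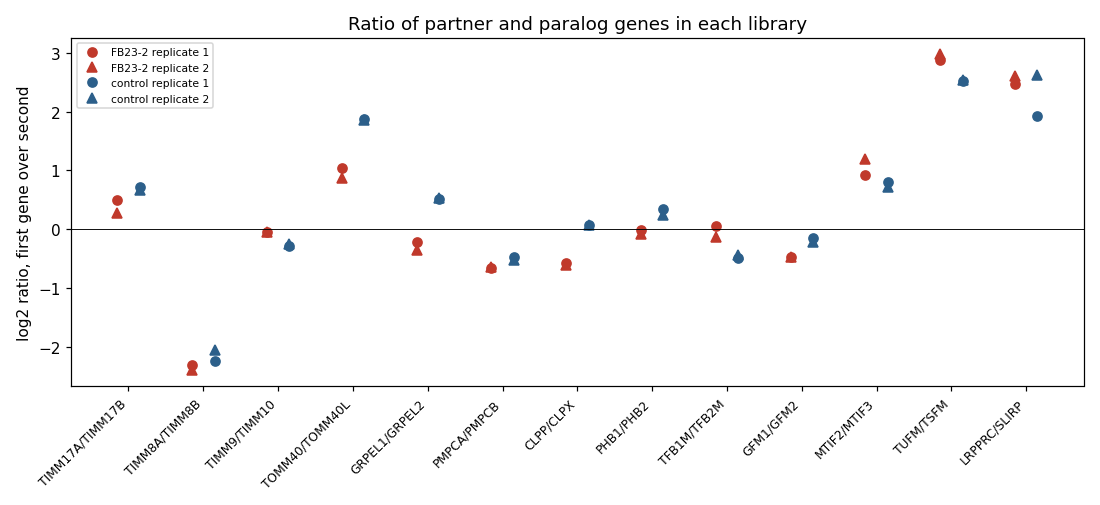
Log2 ratio of the CPM of the first gene over the second (y axis) for 13 pairs of partner or paralog genes in each library, FB23-2 in red and control in blue. The ratio with FB23-2 lies lowest relative to control for TOMM40/TOMM40L, GRPEL1/GRPEL2 and CLPP/CLPX, with differences of -0.92, -0.80 and -0.66.

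A further 70 genes of the same processes that are not among the 54 were also examined. Of these, 43 were lower (61.4%) and 1 was higher, and their median log2 fold change was -0.31. Over all tested genes 20.3% were called lower and 21.8% higher, and among those at 5 CPM or more 26.5% and 30.1%. This list was drawn up with earlier results of these data known, so it is no independent check of the members. In the test against 1.2-fold, 24 of the companion genes were lower, as were 11.7% of all tested genes. Matrix chaperones were lower in 4 of 5 cases. HSPD1, the chaperonin HSP60, had 354 and 347 CPM with FB23-2 and 765 and 787 CPM in control (-1.15 ± 0.04, edgeR adjusted p = 1.83e-07). Its co-chaperonin HSPE1 had 74.6 and 67.2 CPM with FB23-2 and 203 and 165 CPM in control (-1.37 ± 0.12), and shares 14.2% of its exon bases with HSPD1 on the opposite strand. HSPA9, the HSP70 of the import motor, fell by less, with 276 and 271 CPM with FB23-2 and 344 and 334 CPM in control (-0.31 ± 0.04). Other mitochondrial proteases were lower in 10 of 12 cases and other mitochondrial RNA genes in 13 of 18. The lowest log2 fold change of the 70 was that of MRM1, a ribosomal RNA methyltransferase, at 2.09 and 2.22 CPM with FB23-2 and 9.75 and 7.84 CPM in control (-2.01 ± 0.21, edgeR adjusted p = 6.09e-05). Of 10 other genes of mitochondrial DNA upkeep and transcription, 4 were lower. They included SSBP1, the single-strand binding protein that acts with TWNK and POLG at the fork, which had 38.0 and 39.1 CPM with FB23-2 and 72.5 and 72.6 CPM in control (-0.91 ± 0.06, edgeR adjusted p = 4.31e-06). Other translation genes were lower in 7 of 15 cases, and other import and insertion genes in 5 of 10. AGK, a lipid kinase that is also a TIM22 subunit, was the gene called higher, averaging 47.0 ± 4.28 CPM with FB23-2 against 37.9 ± 1.36 CPM for control (SD, n = 2 each; log2 fold change 0.31 ± 0.08, edgeR adjusted p = 0.0122). That call was lost without FB23-2 replicate 2 (0.0824) and without control replicate 2 (0.103).

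Transcript length moved with the result in the transcriptome as a whole. Among genes at 5 CPM or more with a principal transcript under 1000 bases, the median log2 fold change was -0.21 over 478 genes. That of the 9 members in this class was -0.60. Of these 9 members 6 were called lower and 1 higher, while 43.3% of the 478 genes were called lower. From 1000 to 2500 bases the medians were -0.50 for 23 members and -0.02 for 3198 genes, with 19 of the members and 30.8% of the genes called lower. At 2500 bases or more they were -0.43 for 22 members and 0.08 for 6877 genes, and 15 of those 22 members were called lower, against 23.6% of all genes of that length. With GC and length trends taken out, 42 members were called lower and 2 higher, against 40 and 1 without it. That fit covered the 13468 tested genes with a principal transcript, of which it called 27.1% lower and 27.5% higher, while 23.4% and 27.4% of the same genes were called when the trends were kept. Overlap with other genes, which the table cannot resolve without a stated strand setting, touched 18 members at 5% or more of their exon bases. Besides those named above, GFM2 shares 8.89% with NSA2 (-0.60 ± 0.05), and PMPCB shares 13.0% with DNAJC2 (-0.48 ± 0.07), both on the opposite strand. The antisense ID across 25.1% of PHB1 had 0 counts with FB23-2 and 0 and 10 counts in control. Whether such overlaps play a part in the members' values was not tested.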

How the data were processed

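RNA of 4 samples of J.gamma1 cells was sequenced, 2 per group. Per the labels' protocols, replicates were independent biological samples, Trizol was used to extract RNA, and a TruSeq kit to build the libraries. The authors deposited whole-number counts per Ensembl gene ID with no normalization. Per the submitters' processing notes, HISAT2 2.2.0, StringTie and hg38 were used. For the counting step, annotation release and strand setting, details were not given in the sources used here, so reads of overlapping genes may be split between IDs in ways that cannot be checked. A count floor of 3 corresponds to 0.0794 to 0.122 CPM per library, and no member was near it. Intervals for counting error are not printed because replicate spread was larger: the chi-square per degree of freedom, over genes with at least 20 counts, reached 6.69 for the pair of FB23-2 libraries, 7.48 for the control pair and 74.6 to 82.3 across groups.

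Symbols came from a table of gene names (54 of 54 members and 70 of 70 companion genes matched). Coordinates, exon overlaps and principal transcripts (the APPRIS tag) came from GENCODE release 29, on the same build. In R 4.3.3 with edgeR 4.0.16, low genes were removed (filterByExpr, minimum count 10), TMM factors were computed, and a quasi-likelihood model was fitted (glmQLFit, robust, without the legacy setting) and tested (glmQLFTest). P values were adjusted by Benjamini-Hochberg over all tested genes at a threshold of 0.05, and the SE is the absolute log2 fold change over the square root of F. The fit was tested on simulated counts. Pair ratios used log2 CPM with a prior count of 2. Alternatives were 3 other scalings, 2 other filters, DESeq2 1.42.0, voom of limma 3.58.1, a test against 1.2-fold, a replicate block and leaving out each library. Added after seeing the data were the summing of overlapping IDs and the removal of GC and length trends. The members, the companion list and the tests were chosen with earlier results of these data known. Every member may be named, with full values for those called with a log2 fold change of at least 0.5 in size, those called higher and at least 1 per role. Of the companions, up to 4 lowest and 4 highest called genes whose groups did not overlap were named, with HSPA9, HSPD1, HSPE1 and SSBP1. Genes sharing exons, TIMM23B and the motifs were outside that rule and were chosen after values were seen.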

Additional observations from a re-analysis of the deposited data

How the results depend on the processing

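Of the 40 members called lower, 33 were called lower in all 15 alternatives and 34 with any 1 library left out, and none of the 40 changed direction in an alternative. The count of members called lower was 35 to 39 with 1 library left out, 33 in the test against 1.2-fold, and 39 to 42 in the others. With the replicate block it was again 40, with 1 higher, and the block changed no other call of a member. Members called lower that did not pass the test against 1.2-fold were TOMM7, TOMM70, TIMM23, DNAJC19, TFB1M, SLIRP and MTIF3. Same-numbered libraries did not deviate together (correlation 0.0623), so the numbers were not taken as pairs. The test against 1.2-fold left 4287 calls of 7917 over all genes, 2210 lower and 2077 higher, and 24 companions lower and 0 higher. Members called higher numbered 2 with library size alone and after removal of GC and length trends, where TIMM17B joined TOMM6, and 0 with overlapping IDs summed. Leaving out a library gave 5650 to 6596 calls over all genes and 34 to 42 companions lower. Companions called higher numbered 3 with library size alone, 3 after removal of GC and length trends, 0 to 1 with a library left out. Directions turned for TOMM6 with IDs summed (-0.66). Uncalled genes near 0 also turned. TIMM29 did so with RLE size factors (-0.00866), upper quartile scaling (-0.0391), no filter (-0.000849) and a filter of 1 CPM in 2 libraries (-0.0131), and ran from -0.0522 (without FB23-2 replicate 1) to 0.0439 with a library left out. MTIF2 turned with library size alone (0.00752), and GRPEL2 (-0.0680) and CLPX (-0.0243) after removal of GC and length trends. The LRPPRC over SLIRP difference ran from -0.0922 (without control replicate 1) to 0.604 with a library left out, against 0.26. TIMM44 passed in 5 alternatives, TIMM17B in 2, and TIMM17A and GFM2 in 1 each. The cause of these changes was not tested, except that summing merges IDs that share exons.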
